A study of Mus musculus with 4 samples.

Results

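The comparison set the transcriptome of a Treg culture against that of naive CD4+ T cells, over 14350 genes out of the 34745 in the table. A gene was included when at least 1 of these 2 libraries had at least 10 counts for it. The cells came from spleens of C57BL/6 mice, and all groups are labelled wild type. The naive cells were CD4+ T cells selected directly from the spleen, with no culture. The labels call them naive but name no marker by which naive cells were separated from other CD4+ cells, so memory cells and Treg cells formed in the animal may be among them. The Treg cells were collected after 3 days under Treg differentiation conditions, whose cytokines and antibodies the labels do not give. A Th0 library (3 days with antibodies to CD3 and CD28) and a Th17 library (3 days under Th17 conditions) are given beside them. Each group had 1 library, so nothing here has a replicate check, and whether a library came from 1 mouse or from pooled mice is not given in the sources used here. Culture, stimulation and the Treg conditions all separate the 2 libraries, and their parts in a difference cannot be told apart in this comparison.

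Regulatory T cells (Treg) hold immune responses in check and are defined by the transcription factor Foxp3. They arise in the thymus, and they can also be induced from naive CD4+ T cells when antigen receptor and CD28 signals are joined by TGF-beta and IL-2. TGF-beta signals through a pair of serine/threonine kinase receptors to Smad2 and Smad3, while IL-2 signals through its receptor chains, Jak1 and Jak3 to Stat5. TGF-beta together with IL-6 leads instead to the Th17 fate, which is defined by the IL-17 cytokines. Naive T cells divide rarely and recirculate through lymphoid organs. Activated T cells grow, take up glucose and divide.

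Levels are given as CPM, counts scaled to a library of 1000000 reads, with the library total corrected by its scaling factor. A fold is the ratio of 2 CPM values. A log2 ratio was taken after adding 1 CPM to both, which understates the ratio of low genes. The call of higher or lower required that ratio to reach 2-fold and the 95% exact counting interval of the count ratio excluded equality. These intervals cover counting error only, and not all of it, since reads without molecular identifiers are not independent molecules. They compare a pair of libraries, not the conditions. A library with 0 counts was set to 3 counts, which makes the fold a bound. The total count was 11901949 in naive and 10256627 in Treg (10272122 in Th0 and 12414372 in Th17), so 1 count was worth 0.0817 CPM in naive and 0.0902 CPM in Treg. Mitochondrial genes took 4.71% of the naive counts and 3.69% of the Treg counts.

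The labelled cell type was read first from its markers. Of 21 T cell identity genes, 18 met neither rule, 1 was higher and 2 were lower, and their summed level was 9148 CPM in naive and 8741 CPM in Treg. Cd4, the co-receptor that defines these cells, had 698 CPM in naive and 1199 CPM in Treg. The naive library also held transcripts of other blood cells. Markers of B cells, 15 in number, had a sum of 6420.4 CPM in the naive library and 149.8 in the Treg library, as against 17 macrophage and monocyte entries (Itgam stood on 2 identifiers) with 5239 and 66 CPM. For the 12 neutrophil markers the sums were 1808 and 7.12 CPM, with 4 of them at 0 counts in Treg and none at 0 in naive. The sums were 3519 and 201 CPM for 14 dendritic cell markers, of which 2 were called higher in Treg, and for 12 erythroid and platelet markers 205 and 10 CPM. In such bulk RNA, fewer cells of a type and less RNA per cell cannot be told apart. These sums move in the same direction as the genes called lower in Treg, and their part in those differences was not tested. Other marker lists had higher sums in Treg than in naive. These were plasma cells (353 and 1028 CPM in naive and Treg), CD8 T and NK cells (219 and 300 CPM) and mast cells and basophils (60.2 and 224 CPM). Most of their members were not called higher, or as many were lower. Of 6 plasma cell markers tested, 3 were higher and 3 lower, and Irf4 alone had 685 CPM in Treg. Of 12 CD8 T and NK markers, 1 was higher (Gzma) and 5 lower. Of 6 mast cell and basophil markers tested, 1 was higher (Kit) and 2 lower. Of the 2 identity genes called lower, Cd5 (324 against 161 CPM) lost its call under upper quartile scaling and also under library totals.

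**Figure D1:**
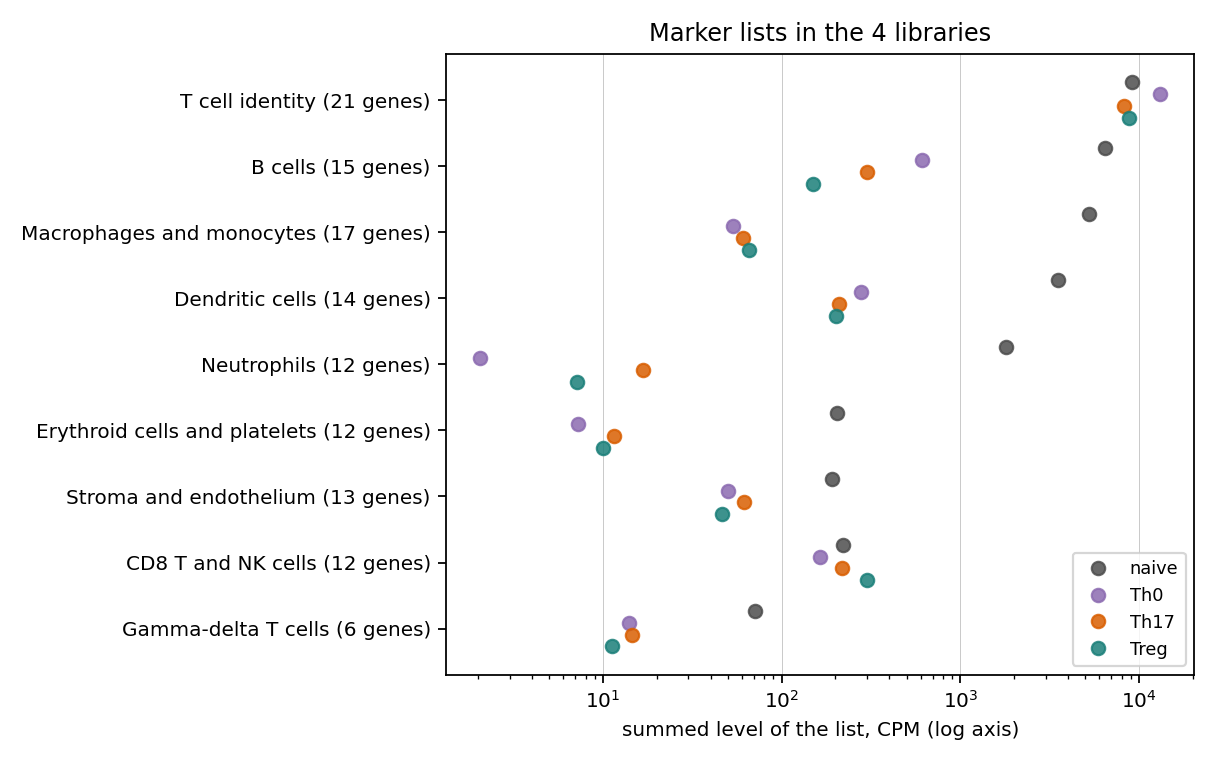
Summed level of each marker list in CPM (log axis), 1 point per library and list. The T cell identity genes lie close together in naive and Treg (9148 and 8741 CPM), while the B cell, macrophage, dendritic cell and neutrophil lists stand highest in the naive library.

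By the size rule 4557 of the 14350 genes were called (31.8%), of which 2132 were higher in Treg (14.9% of those tested) and 2425 were lower (16.9%). These shares are the background for the counts below. At 4-fold or more, 650 genes were higher and 1054 lower, and at 16-fold or more 55 and 274. Thus 46.8% of the calls were higher. Among the genes with at least 10 CPM in at least 1 cultured library, 1545 were higher and 778 lower, so that 66.5% of the calls were higher. This restriction keeps genes that cultured cells had and so takes out lower calls in particular. The median log2 ratio over all genes tested was -0.02.

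**Figure D2:**
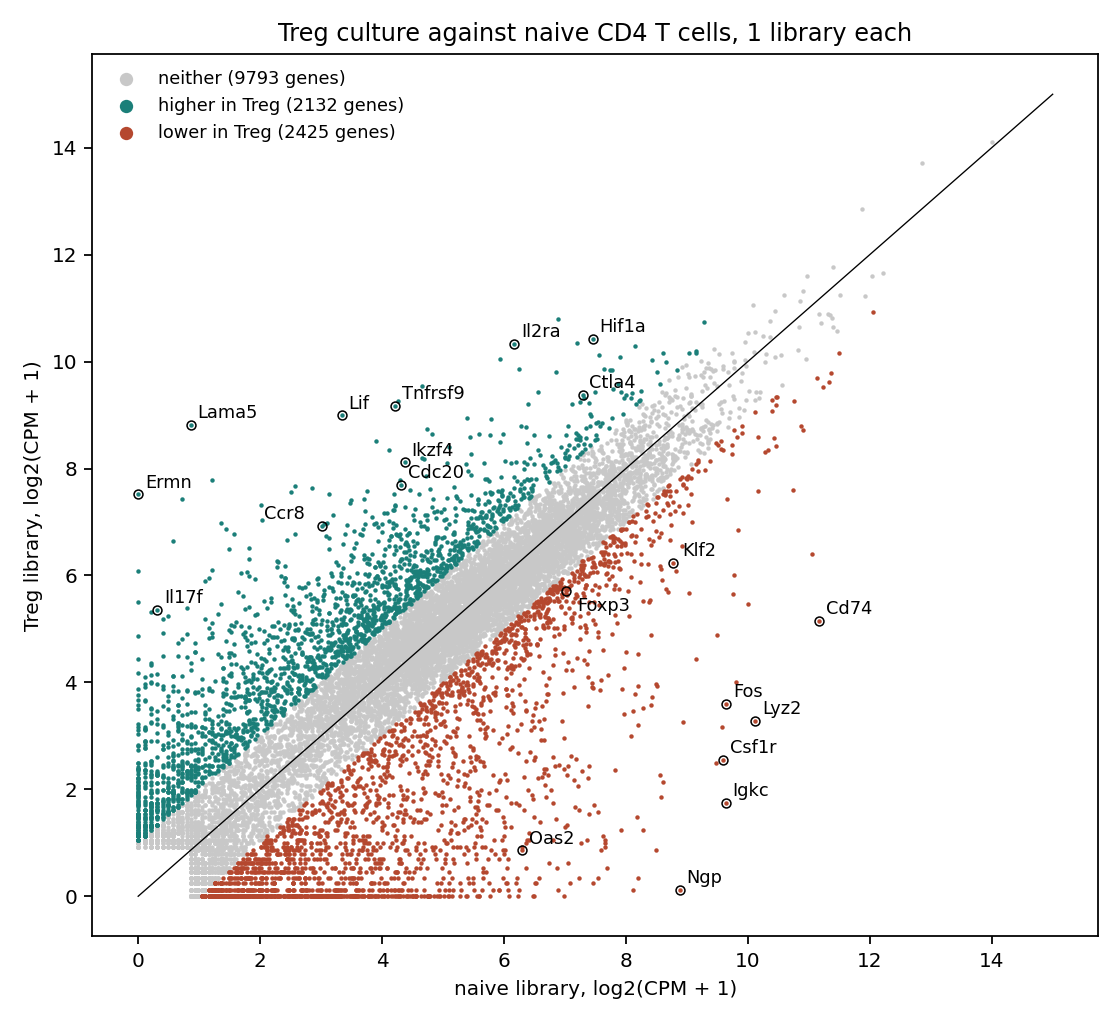
Level of each of the 14350 genes in the naive library (x axis) and the Treg library (y axis), both as log2(CPM + 1), with called genes in colour and named genes circled. Genes such as Lama5 and Il2ra lie far above the line of equality and Ngp, Csf1r and Igkc far below it. Foxp3 lies below the line, at 129 against 51.5 CPM.

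Foxp3 (chromosome X, 7579676 to 7595243, GRCm38), the factor that defines the lineage, had 129 CPM in naive cells, 1.37 in Th0, 11.3 in Th17 and 51.5 in the Treg culture. The Treg library was thus above both other cultures but below the naive library, from which it differed by 2.5-fold (interval 2.27 to 2.76) in the lower direction. Whether Treg cells already present in the spleen were part of the naive library, and so of its Foxp3 level, was not tested, and the same holds for Ikzf2, Nrp1 and Klrg1. In the authors' FPKM, which also divide by gene length, Foxp3 had 19.8 in naive and 8.3 in Treg. Exons of Foxp3 overlap those of Ccdc22, Ppp1r3f, Gm36995 and the same-strand gene Flicr, so reads there could belong to either. Of the 16 Treg transcription factors tested, 4 were higher, 2 were lower and 10 were uncalled, and the median log2 ratio was -0.15.

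Ikzf4 (Eos), a zinc finger partner of Foxp3 in silencing its target genes, had 19.7 CPM in naive cells, 21.6 in Th0, 221 in Th17 and 277 in the Treg culture, and was 14.1-fold (interval 12.3 to 16.1) higher in Treg than in naive. Irf4, which acts downstream of the antigen receptor, had 92.8 CPM in naive cells, 83.6 in Th0, 995 in Th17 and 685 in the Treg culture. Both genes stood high in Treg and Th17 and low in naive and Th0. Nr4a3, an orphan nuclear receptor induced by antigen receptor signals, was 10.5-fold higher (17.3 against 182 CPM), and Bach2, a repressor of effector differentiation, was 3.39-fold higher (54 against 183 CPM). Prdm1 (Blimp-1), found in effector Treg cells, was the other member that was lower, by 3.68-fold (15.9 against 4.33 CPM). Ikzf2 (Helios), which is high in Treg cells of thymic origin, had 104 CPM in naive cells, 41.9 in Th0, 39.5 in Th17 and 52.1 in the Treg culture and met neither rule with the scaling used, although it was called lower with DESeq2 size factors. Nr4a1 (629.8 against 443 CPM), Satb1 (509 against 978 CPM), Runx1 (107 against 65.6 CPM), Rel (205 against 174 CPM), Batf (32 against 32.6 CPM), Gata3 (57.5 against 58.7 CPM), Foxo1 (334 against 273 CPM), Foxo3 (157 against 146 CPM) and Cbfb (190.2 against 166 CPM) met neither rule. Satb1 was called higher with library totals.

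Receptors that mark Treg cells, many of which activated T cells share, went both ways. Of 22 tested, 9 were higher and 5 lower, with a median log2 ratio of 0.02. Among the 19 with at least 10 CPM in a cultured library, 9 were higher and 3 lower, with a median of 0.51. This limit takes out lower calls in particular, and over all genes within it the median was 0.08. Il2ra (chromosome 2, 11642807 to 11693193), the alpha chain (CD25) of the high-affinity IL-2 receptor, had 71 CPM in naive cells, 171 in Th0, 1558 in Th17 and 1287 in the Treg culture, and was 18.1-fold (interval 16.9 to 19.4) higher. Tnfrsf9 (4-1BB), a costimulatory receptor, had 17.6 CPM in naive cells, 89.4 in Th0, 631 in Th17 and 574 in the Treg culture, or 32.6-fold (interval 28.4 to 37.5) higher. The levels of both in Treg were close to those in Th17 and far above those in naive and Th0. Ccr8, a chemokine receptor of Treg cells in tissues and tumours, had 7.1 CPM in naive cells, 18.9 in Th0, 37.3 in Th17 and 121 in the Treg culture, so that the Treg library stood above each of the others.

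The other receptors called higher were Lag3, an inhibitory receptor that binds MHC class II (27.2 against 397 CPM, 14.6-fold), the costimulatory receptors Tnfrsf4 (OX40, 33.4 against 339 CPM, 10.2-fold) and Tnfrsf18 (GITR, 42.5 against 383 CPM, 9.01-fold), and Ccr4 (15.4 against 143 CPM, 9.29-fold). Ctla4, which takes the ligands of CD28 away from antigen-presenting cells, had 155 CPM in naive cells, 258 in Th0, 794 in Th17 and 665 in the Treg culture. It was 4.28-fold higher in Treg, and Icos, a CD28 relative, was 3.47-fold higher (93.1 against 323 CPM). The receptors called lower included Nrp1, a semaphorin receptor that is high in thymic Treg cells, with 64.5 CPM in naive cells, 1.26 in Th0, 3.43 in Th17 and 10.6 in the Treg culture. Klrg1, a marker of terminally differentiated cells, had 84 counts in naive and 7 in Treg, or 10.9-fold (interval 5.05 to 27.9) lower. The integrin chain Itgb8 (8.08 against 1.8 CPM), Cd83 (85.1 against 36.6 CPM) and Cd27 (175 against 80.8 CPM) were lower as well. Tnfrsf1b, Gpr83, Izumo1r, Itgae, Lrrc32, Tigit, Il1rl1 and Ly6c1 met neither rule, with folds between 1.08-fold (Itgae) and 1.72-fold (Ly6c1). Lrrc32 (GARP), which holds latent TGF-beta on the Treg surface, had 56.9 CPM in naive cells, 16.9 in Th0, 90.6 in Th17 and 51.6 in the Treg culture.

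Among 14 molecules through which Treg cells suppress others, 3 were higher and 4 lower. Of the 9 with at least 10 CPM in a cultured library, 3 were higher and 2 lower. Nt5e (CD73), which makes adenosine from AMP, had 54.6 CPM in naive cells, 36.2 in Th0, 109 in Th17 and 185 in the Treg culture, and was 3.39-fold higher. Its partner Entpd1 (CD39), which degrades ATP to AMP, went the other way, with 71.9 CPM in naive cells, 8.81 in Th0, 31.2 in Th17 and 26.1 in the Treg culture, or 2.76-fold lower. Lgals1 (galectin-1) was 5.82-fold higher (76.6 against 446 CPM), and Gzmb, a protease of cytotoxic granules, 2.53-fold higher (9.96 against 25.2 CPM). Fgl2 (89.6 against 10.5 CPM, 8.56-fold), the pore protein Prf1 (31.6 against 8.12 CPM, 3.89-fold) and the growth factor Areg (20 counts in naive and 0 in Treg, at least 6.04-fold) were lower. Il10 had 3.35 CPM in naive cells, 2.29 in Th0, 10.2 in Th17 and 6.85 in the Treg culture. Its log2 ratio of 0.85 missed the 2-fold rule, and it rested on 41 and 76 counts. The IL-35 chains Ebi3 (14.2 against 15.8 CPM) and Il12a (1.55 against 0.631 CPM), the PD-1 ligands Cd274 (92.1 against 106 CPM) and Pdcd1lg2 (7.43 against 7.94 CPM), Tgfb1 (250.1 against 275 CPM) and Penk (6.7 against 6.4 CPM) met neither rule.

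**Figure D3:**
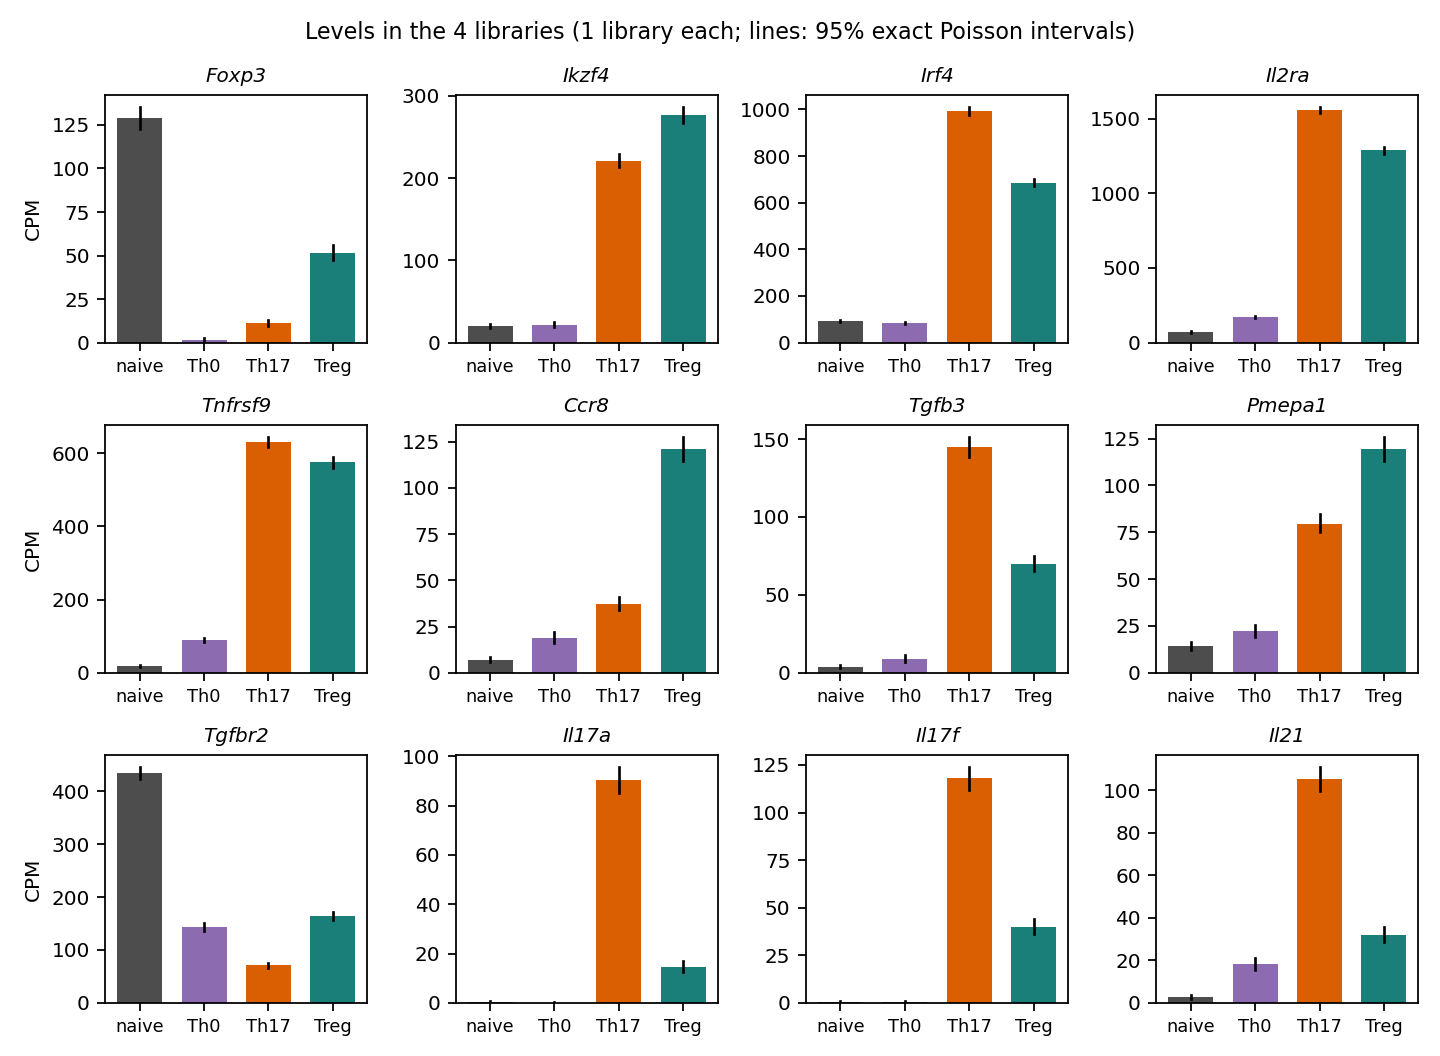
Level in CPM of 12 genes of the Treg, TGF-beta, IL-2 and Th17 lists in each of the 4 libraries (bars, 1 library each), with 95% exact Poisson intervals as lines. Foxp3 and Tgfbr2 are highest in naive, Ccr8, Ikzf4 and Pmepa1 are highest in Treg, and Il17a, Il17f, Il21 and Tgfb3 are highest in Th17 with Treg next.

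The TGF-beta pathway was described by its members' roles, with 29 of 30 genes tested, 9 higher, 4 lower and a median log2 ratio of 0.04. Of the 24 with at least 10 CPM in a cultured library, 9 were higher and 2 lower. Of the ligands, Tgfb1 had 250.1 CPM in naive cells, 103 in Th0, 217 in Th17 and 275 in the Treg culture and met neither rule, while Tgfb3 had 3.84 CPM in naive cells, 8.93 in Th0, 145 in Th17 and 70.1 in the Treg culture, or 18.3-fold (interval 13.6 to 25.1) higher. Tgfb2 had 12 counts in naive and 1 in Treg and met neither rule. The secreted proteins that bind latent TGF-beta differed, as Ltbp3 had 5 and 115 counts, or 25.4-fold (interval 10.6 to 79.7) higher, and Ltbp1 had 20 and 0 counts, or at least 6.04-fold lower. Furin, the protease that cleaves the precursor, had 89.4 CPM in naive cells, 126 in Th0, 732 in Th17 and 394 in the Treg culture, or 4.4-fold higher. Of the integrin chains that release the active cytokine, Itgav was 2.62-fold higher (45.4 against 119 CPM) and Itgb8 4.48-fold lower.

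Of the receptors, Tgfbr2, the chain that binds the ligand, had 434 CPM in naive cells, 143 in Th0, 71.1 in Th17 and 165 in the Treg culture, so that all 3 cultures lay below the naive library. It was 2.64-fold (interval 2.5 to 2.78) lower in Treg. Tgfbr1, the signalling partner, had 83.5 against 94.5 CPM and met neither rule, as did the co-receptor Tgfbr3 (75.6 against 82 CPM). Eng (endoglin), another co-receptor, was 3.23-fold higher (7.92 against 25.6 CPM). The activin receptors Acvr1 (3.84 against 4.69 CPM) and Acvr1b (80.4 against 50.7 CPM) met neither rule. The signal carriers Smad2 (37.3 against 38.4 CPM), Smad3 (100 against 88.2 CPM) and Smad4 (102 against 83 CPM) also met neither rule, and their log2 ratios lay between -0.30 and 0.04.

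The feedback inhibitors did not move as a group. Smad7, which blocks the receptor, had 165 CPM in naive cells, 58.5 in Th0, 53.1 in Th17 and 62.7 in the Treg culture, or 2.63-fold lower in Treg than in naive. Skil (SnoN), which represses Smad target genes, was 3.1-fold higher (43 against 133 CPM), and Pmepa1, which sequesters Smad proteins, had 14.3 CPM in naive cells, 22.3 in Th0, 79.6 in Th17 and 119 in the Treg culture, or 8.35-fold (interval 7.12 to 9.83) higher. Its relative Ldlrad4 was 2.42-fold higher (17.4 against 42 CPM). Ski, Smurf1, Smurf2, Tgif1 and Bambi met neither rule, with log2 ratios between -0.11 (Tgif1) and 0.09 (Ski). Smad6 stayed under 10 counts in both libraries. Of the target genes, the integrin chain Itgae (CD103) had 18 CPM in naive cells, 2.06 in Th0, 6.48 in Th17 and 16.8 in the Treg culture, close in naive and Treg.

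Of the 24 genes of the IL-2 and STAT5 list, all tested, 12 were higher, 3 lower and 9 uncalled, and the median log2 ratio was 1.0 against -0.02 over all genes. The cytokine itself, Il2, had 1.14 CPM in naive cells, 3.43 in Th0, 1.6 in Th17 and 4.96 in the Treg culture. It was 4.34-fold (interval 2.38 to 8.45) higher in Treg and rested on 14 and 55 counts. Beside Il2ra, the beta chain Il2rb was 2.3-fold higher (302 against 694 CPM), while the common gamma chain Il2rg met neither rule (576 against 372 CPM). The 2 kinases bound to these chains differed in direction, as Jak3 was 4.55-fold higher (238 against 1080.2 CPM) and Jak1 2.16-fold lower (959.6 against 445 CPM). Stat5a was 2.42-fold higher (101 against 244 CPM) and Stat5b met neither rule (293 against 415 CPM).

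Of the STAT5-induced inhibitors of cytokine receptors, 3 were higher, with Cish 7.23-fold (42.9 against 309.9 CPM), Socs1 5.56-fold (25.2 against 139.9 CPM) and Socs2 5.28-fold. Socs2 had 12.2 CPM in naive cells, 4.01 in Th0, 30.5 in Th17 and 64.2 in the Treg culture, and stood above each of the other libraries. The survival genes Bcl2 (167 against 595 CPM, 3.57-fold) and Bcl2l1 (13.7 against 70.1 CPM, 5.11-fold) were higher too, as were the cytokine genes Lta (17.2 against 148 CPM, 8.57-fold) and Osm (29.4 against 86.5 CPM, 2.94-fold). Il9r, the IL-9 receptor, was 12.8-fold lower (22 against 1.71 CPM). Bcl6 is the transcriptional repressor that defines follicular helper cells, and IL-2 signals silence it. Its level was 69.2 CPM in naive cells, 127 in Th0, 18.6 in Th17 and 11.2 in the Treg culture. It was 6.19-fold (interval 5.12 to 7.53) lower in Treg than in naive. Socs3 (154 against 269 CPM), Pim1 (415 against 602 CPM), Mcl1 (780.0 against 613 CPM), Il4ra (294 against 343 CPM), Il7r (437 against 302 CPM), Il15ra (12.1 against 16.8 CPM) and Il21r (242 against 319.9 CPM) met neither rule. Exons of Jak3 overlap those of Insl3 on the same strand, and Socs2 has near-identical copies (Gm9847 and Gm8000), which makes both counts less certain.

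Genes of the Th17 programme were also higher in the Treg culture than in naive cells. Of 17 tested, 11 were higher and none was lower, with a median log2 ratio of 1.86. Il17a had 0.245 CPM in naive cells, 0 in Th0, 90.4 in Th17 and 14.7 in the Treg culture and Il17f 0.245 CPM in naive cells, 0.458 in Th0, 118 in Th17 and 39.9 in the Treg culture. Each rested on 3 naive counts, which gave 60-fold (interval 20.2 to 294) and 163-fold (interval 55.4 to 794). Il22 had 1 naive count and 37 in Treg, or 40.9-fold (interval 6.89 to 1657), and Il21 had 2.53 CPM in naive cells, 18.2 in Th0, 105 in Th17 and 32 in the Treg culture. The cytokine genes thus stood in the same order, Th17 then Treg, with Il17a, Il17f and Il22 near the floor in naive and Th0. Il22 has a near-identical copy (Iltifb), which makes its count less certain.

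Upstream in the same programme, Hif1a, which drives glycolysis and Th17 differentiation, had 175 CPM in naive cells, 1834 in Th0, 1917 in Th17 and 1378 in the Treg culture, so that all 3 cultures were far above naive. Ahr, a receptor for tryptophan metabolites, had 23.7 CPM in naive cells, 21.6 in Th0, 97.8 in Th17 and 127 in the Treg culture, so that Treg stood first, and Rora was 3.68-fold higher (46.8 against 172 CPM). The receptors Ccr6 (12.7 against 33.4 CPM, 2.62-fold) and Il1r1 (3.67 against 9.11 CPM, 2.48-fold) were higher, and Stat3 (308 against 588 CPM), Maf (144 against 134 CPM), Batf, Il6ra (320.1 against 181 CPM), Il6st (219 against 158 CPM) and Csf2 (10 and 25 counts) met neither rule. Stat3 was called higher with library totals. Il23r stayed under 10 counts in both libraries, and Ccl20 had none. Exons of Il21 overlap the opposite-strand gene Gm12534, which also had reads in Treg, and strand is not given in the sources used here.

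Genes of cell division were higher. Of 41 mitosis genes, 39 were higher in Treg and none was lower, with a median log2 ratio of 2.46. Cdc25c, the phosphatase that starts mitosis, had 15 counts in naive and 349 in Treg, or 25.7-fold (interval 15.4 to 46.4) higher. Ccnb1 (cyclin B1) had 4.33 CPM in naive cells, 53.2 in Th0, 61.1 in Th17 and 61 in the Treg culture, and Cdc20, which activates the anaphase-promoting complex, 18.9 CPM in naive cells, 258 in Th0, 163 in Th17 and 207 in the Treg culture. The ubiquitin-conjugating enzyme Ube2c was 11.6-fold higher (24.9 against 289 CPM) and the kinesin Kif18b 12-fold (12.2 against 147 CPM). Only Bub3 (88.5 against 126 CPM) and Pttg1 (24.9 against 48.4 CPM) met neither rule. Ccnb1 and Cdc20 have near-identical copies in the genome, and their counts are less certain.

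Because the mitosis genes moved together, their promoters were read from RefSeq (GRCm38.p6), where 33 of the 41 matched by symbol. Each window ran from 250 bases before to 50 after the start of transcription. The cell cycle homology region TTTGAA, in either strand, was found in 25 of the 33 (75.8%) and in 20.2% of all 27025 genes with a window. A match is a description of the letters and not a binding site. The promoters of 2 mitosis genes that held the motif, Ube2c and Kif18b, are shown, with its match in capitals. Cdc25c and Ccnb1 had larger ratios than either and are not shown.
Ube2c (chr2:164769679-164769978, plus strand): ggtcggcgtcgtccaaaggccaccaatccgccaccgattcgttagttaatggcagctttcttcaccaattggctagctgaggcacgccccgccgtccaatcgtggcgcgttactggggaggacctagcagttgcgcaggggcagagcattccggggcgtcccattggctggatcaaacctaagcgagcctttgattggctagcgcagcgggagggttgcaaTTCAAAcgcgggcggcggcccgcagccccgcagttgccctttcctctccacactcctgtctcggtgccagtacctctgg
Kif18b (chr11:102925075-102925374, minus strand): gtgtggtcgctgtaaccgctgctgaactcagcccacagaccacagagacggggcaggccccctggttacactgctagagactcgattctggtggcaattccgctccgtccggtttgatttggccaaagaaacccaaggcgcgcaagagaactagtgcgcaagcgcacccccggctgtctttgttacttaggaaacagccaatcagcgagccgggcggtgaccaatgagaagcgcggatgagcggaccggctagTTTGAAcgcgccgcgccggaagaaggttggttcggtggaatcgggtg
The match began 29 bases before the start in Ube2c, where it reads TTCAAA on the printed strand, and at base 4 after it in Kif18b.

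DNA replication genes had a smaller shift. Of 41, 14 were higher, none was lower and 27 were uncalled. The median was 0.76, and all log2 ratios were above 0. The largest ratios were those of Pole, the leading-strand polymerase (20.7 against 88.1 CPM), the replication initiation factor Mcm10 (9.8 against 43.2 CPM), Orc1 (2.45 against 11.8 CPM), Gins2 (5.47 against 22 CPM) and Cdc45 (10.6 against 37.4 CPM). Of 22 cyclins, kinases, inhibitors and E2F factors of G1, 12 were higher and 1 lower. Cdkn1a (p21), an inhibitor of cyclin-dependent kinases, had 14 CPM in naive cells, 215 in Th0, 423 in Th17 and 363 in the Treg culture, or 26-fold (interval 22.3 to 30.5) higher. Ccnd1 (cyclin D1) had 135 CPM in naive cells, 0.229 in Th0, 0.838 in Th17 and 0.18 in the Treg culture, the 1 member that was lower. Cyclin D1 is low in lymphocytes and common in myeloid and stromal cells. Myeloid markers also stood high in the naive library, while those of stroma and endothelium reached only 191 CPM there. The part of such cells in the Ccnd1 level was not tested. Cyclin D3 (Ccnd3), named here because it belongs to the few genes above all other libraries, had 162 CPM in naive cells, 48.5 in Th0, 105 in Th17 and 378 in the Treg culture.

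Glycolysis genes were higher, with 19 of 24 called higher, none lower and a median log2 ratio of 1.46. Aldoc, an aldolase, had 4.98 CPM in naive cells, 51.6 in Th0, 149 in Th17 and 108 in the Treg culture, or 21.7-fold (interval 16.8 to 28.6) higher. Hk2, the inducible hexokinase, had 26.7 CPM in naive cells, 3.21 in Th0, 407 in Th17 and 194 in the Treg culture. The enolase Eno2 was 12.2-fold higher (3.35 against 40.8 CPM), Pgk1, which makes ATP, 8.94-fold (146 against 1306 CPM) and Tpi1 8.47-fold (47.2 against 399.6 CPM). Pgk1 and Tpi1 have near-identical copies in the genome, as do Gapdh, Eno1, Pgam1, Pkm and Ldha of this list, so their counts are less certain. With DESeq2 size factors 17 of the 24 were higher. Of 17 hypoxia targets outside glycolysis, 9 were higher and none lower. They were led by the oxygen sensor Egln3 with 6.21 CPM in naive cells, 13.2 in Th0, 624 in Th17 and 198 in the Treg culture, followed by Vegfa, a growth factor for blood vessels, at 4.33 against 71.1 CPM, the mitophagy receptor Bnip3 (6.61 against 45.5 CPM), the collagen hydroxylase P4ha2 (2.78 against 19.7 CPM) and Ndrg1 (25.7 against 131 CPM). The levels of all 5 were higher in Th17 than in Treg. Bnip3 has near-identical copies, which makes its count less certain.

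The core of the hypoxia response element, ACGTG, was found in 14 of the 23 glycolysis promoters matched (60.9%). It was in 21.8% of all windows and in 28.8% of the windows of genes tested here. Over the other lists searched, its share ran from 5% (interferon-stimulated genes) to 44.4% (TGF-beta pathway). The promoter of Aldoc, the glycolysis gene with the largest ratio, is shown with its match in capitals.
Aldoc (chr11:78322823-78323122, plus strand): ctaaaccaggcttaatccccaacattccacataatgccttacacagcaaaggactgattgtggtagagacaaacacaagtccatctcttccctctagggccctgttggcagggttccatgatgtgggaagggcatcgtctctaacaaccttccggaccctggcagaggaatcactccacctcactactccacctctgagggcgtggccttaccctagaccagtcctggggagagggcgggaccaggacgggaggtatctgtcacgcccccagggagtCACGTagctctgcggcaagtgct
The match, CACGT on this strand, began 28 bases after the start.

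Genes of cholesterol synthesis and uptake were higher as well, with 19 of 25 tested called higher, none lower and a median of 1.59. Idi1, an isomerase of the isoprenoid steps, had 16.7 CPM in naive cells, 124 in Th0, 129 in Th17 and 105 in the Treg culture, or 6.32-fold higher. Hmgcs1, the synthase that opens the mevalonate pathway, was 5.52-fold higher (49.7 against 275 CPM), Fdps 5.85-fold (18.6 against 109 CPM), Acat2 5.28-fold (14.2 against 75 CPM) and the cholesterol carrier Stard4 5.29-fold (32.7 against 173 CPM). All 3 cultures were above naive for these 5 genes, of which Idi1, Fdps and Acat2 have near-identical copies. The members called neither were Tm7sf2, Nsdhl, Ebp, Dhcr7, Srebf2 and Scap. The CCAAT box was found in 16 of 18 matched promoters (88.9%) and in 41.1% of all windows. It was also found in 70.6% of the matched promoters of the serine and ATF4 list, 69.7% of the mitosis list and 63.6% of the DNA replication list. The relaxed sterol element TCACNCCAC was found in 1 of the 18 (5.56%), in 1.44% of all windows and in 8.7% of the glycolysis list. The strict sterol element, which contains the relaxed one, was found in 0 of the 18 and in 0.0999% of all windows. The promoter of Idi1 holds 2 CCAAT boxes on the opposite strand, shown as ATTGG in capitals.
Idi1 (chr13:8885356-8885655, plus strand): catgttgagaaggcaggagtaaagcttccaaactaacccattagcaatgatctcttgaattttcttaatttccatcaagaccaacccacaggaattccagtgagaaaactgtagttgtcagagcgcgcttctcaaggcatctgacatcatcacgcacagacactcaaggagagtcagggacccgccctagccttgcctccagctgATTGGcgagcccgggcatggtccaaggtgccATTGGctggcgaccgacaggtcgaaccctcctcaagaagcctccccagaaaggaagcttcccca

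Serine, one-carbon and ATF4 target genes had 13 of 19 tested members higher and none lower, with a median of 1.47. Asns (asparagine synthetase) had 4.08 CPM in naive cells, 78 in Th0, 79.6 in Th17 and 62.9 in the Treg culture. Pycr1, of proline synthesis, had 1.23 CPM in naive cells, 11 in Th0, 46.2 in Th17 and 27.3 in the Treg culture, or 22.3-fold higher, and Trib3, a pseudokinase induced by ATF4, was 10.5-fold higher (2.94 against 30.9 CPM). Cth, of cysteine synthesis, and Aldh1l2, of mitochondrial folate, had 0 counts in naive and 68 and 47 in Treg. Of 14 amino acid transporters, 3 were higher and 3 lower, or 3 and 1 of the 11 with at least 10 CPM in a cultured library. The neutral amino acid carriers Slc1a4 (1.47 against 37.7 CPM, 25.6-fold) and Slc7a5 (43 against 235 CPM, 5.47-fold) and the glycine carrier Slc6a9 (2.04 against 19.4 CPM, 9.5-fold) were higher. Slc7a8 (24.7 against 0.992 CPM), Slc36a1 (59.5 against 6.31 CPM) and Slc43a1 (6.86 against 1.35 CPM) were lower, the last named after its values were seen. Of 20 aminoacyl-tRNA synthetases, 7 were higher and none lower, led by Yars (45.3 against 133 CPM), Cars (41.6 against 122 CPM) and Sars (121 against 336 CPM).

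Other growth lists differed little. None of the 27 ribosome biogenesis genes was called, and their median log2 ratio was -0.32. The member nearest to a call was Npm1 (nucleophosmin) at 485 CPM in naive cells, 2012 in Th0, 1403 in Th17 and 949 in the Treg culture, which library totals called higher together with Rrp1b. Npm1 has near-identical copies, which makes its count less certain. Of 33 genes of the TCA cycle and glutamine use, 3 were higher and none lower. Among these were Gls2, a glutaminase (4 and 159 counts), and pyruvate carboxylase Pcx (4.41 against 23.8 CPM). Of 20 genes of nucleotide synthesis, 2 were higher, Prps1 (37.8 against 167 CPM) and Aprt (36.8 against 87.2 CPM), and none was lower.

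**Figure D4:**
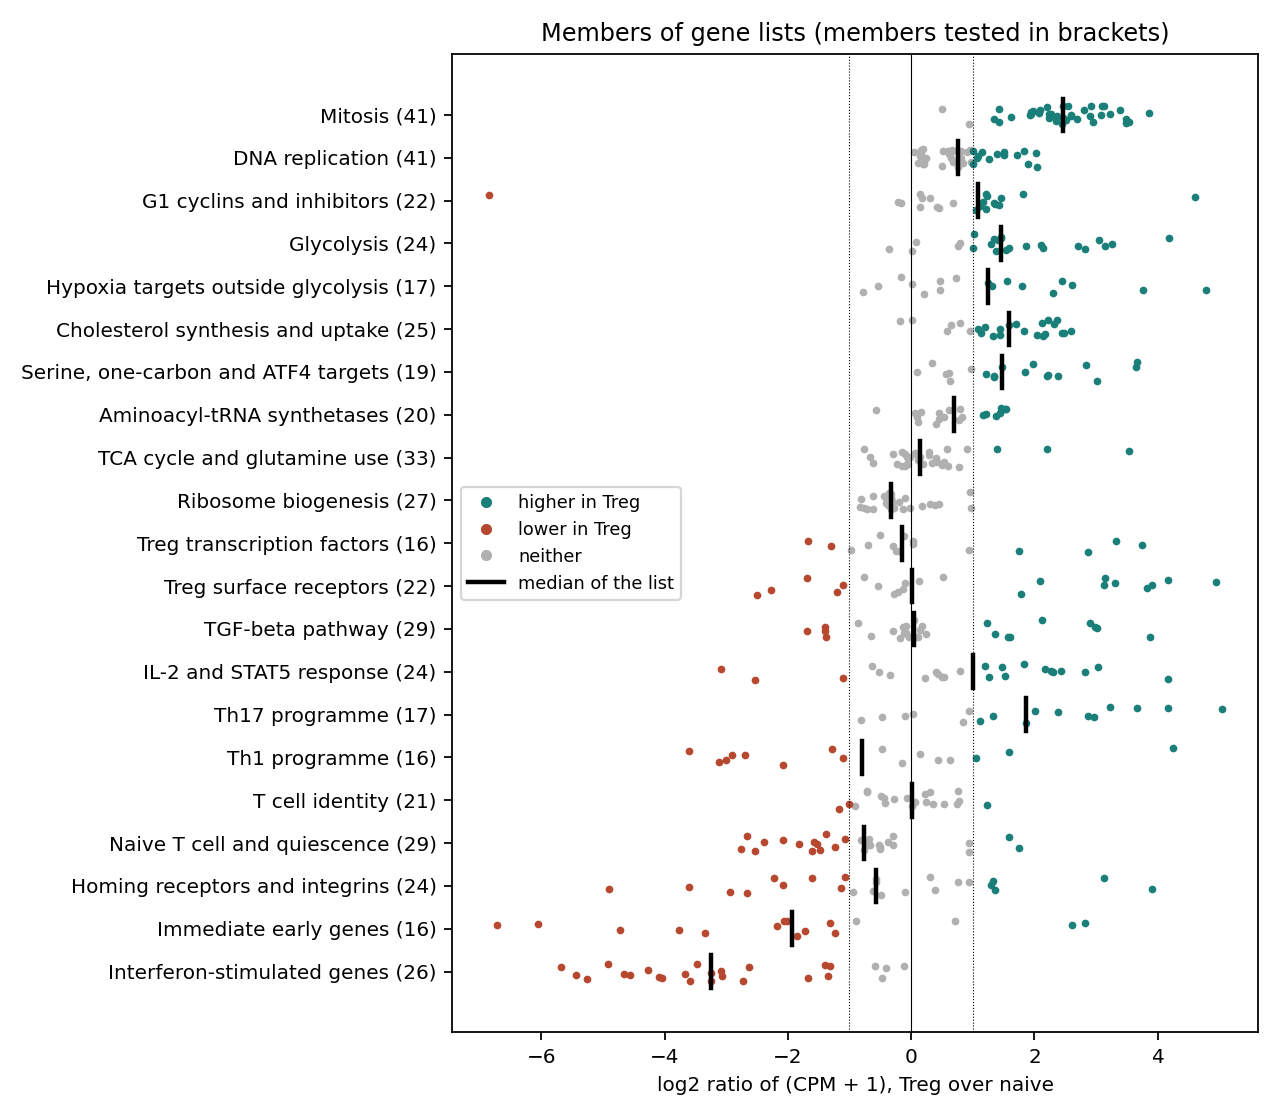
Log2 ratio of (CPM + 1) of Treg over naive for each tested member of 21 gene lists (points, coloured by call) with the list's median (black bar); dotted lines mark 2-fold. The mitosis list lies to the right with a median of 2.46 and the interferon-stimulated list to the left with -3.25, while the Treg receptor and TGF-beta lists reach to both sides.

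Of 29 genes of naive and resting T cells, 13 were lower and 2 higher, with a median log2 ratio of -0.77. All 29 had at least 10 CPM in a cultured library, so the count did not change when genes absent from cultured cells were left out. Klf2, which keeps T cells resting and recirculating, had 437 CPM in naive cells, 22.9 in Th0, 43.3 in Th17 and 74.6 in the Treg culture. Its target S1pr1, used to leave lymph nodes, had 541 CPM in naive cells, 193 in Th0, 80.5 in Th17 and 127 in the Treg culture. Klf3 was 6.91-fold (interval 6.29 to 7.6) lower (311 against 45 CPM) and Dapl1 6.13-fold lower (29.3 against 4.78 CPM). For all 4 genes each culture lay below the naive library. Bach2 and Igfbp4 (345 against 1039 CPM, named after its values were seen) were the 2 members that were higher.

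Homing receptors went both ways. Of 24 homing receptors and integrins, 5 were higher and 9 lower. Ccr9, the receptor for entry into the small intestine, had 355 counts in naive and 0 in all 3 cultures, or at least 107-fold lower. The inflammatory receptors Cxcr3 (46 CPM in naive cells, 1.72 in Th0, 2.36 in Th17 and 2.89 in the Treg culture) and Ccr2 (45.8 CPM in naive cells, 2.4 in Th0, 16.8 in Th17 and 5.14 in the Treg culture) were lower in Treg than in naive. Ccr4 and Ccr8 were the members furthest in the other direction. Ccr2 is also a monocyte gene, and the monocyte markers were lower in Treg too. The part of monocytes in the Ccr2 level was not tested.

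Immediate early genes, which stimulation and cell handling induce within minutes, were lower. Of 16, 12 were lower and 2 higher, with a median of -1.93. Fos had 802 CPM in naive cells, 5.38 in Th0, 9.98 in Th17 and 11.1 in the Treg culture, or 72.3-fold (interval 60.5 to 87.1) lower, and Fosb 379.5 CPM in naive cells, 1.14 in Th0, 2.59 in Th17 and 2.62 in the Treg culture, or 145-fold (interval 101 to 217) lower. Dusp1, a phosphatase that ends MAP kinase signals, was 27.5-fold lower (568 against 20.6 CPM), Zfp36, which destabilises cytokine mRNA, 13.9-fold (874 against 63 CPM) and Jun 10.4-fold (521 against 50.2 CPM). For Fos, Fosb, Dusp1, Zfp36 and Jun the naive library stood above all 3 cultures. The 2 members that were higher, Fosl1 (0.735 against 9.65 CPM) and Fosl2 (82.8 against 591 CPM), are Fos relatives and were named after their values were seen. How the naive cells were handled before lysis is not given in the sources used here, and its part in these values was not tested.

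Of the 26 interferon-stimulated genes, 22 were lower and none higher, with a median of -3.25. Oas2, which activates RNase L, had 77.4 CPM in naive cells, 0.801 in Th0, 0.533 in Th17 and 0.812 in the Treg culture, or 95.4-fold (interval 50 to 209) lower. Ifi203, a nuclear DNA-binding protein, had 488 CPM in naive cells, 64.6 in Th0, 3.96 in Th17 and 8.57 in the Treg culture, Rtp4 51 CPM in naive cells, 0.229 in Th0, 0.229 in Th17 and 0.361 in the Treg culture and Oasl2 61.7 CPM in naive cells, 0.572 in Th0, 0.991 in Th17 and 1.08 in the Treg culture. Oasl1 had 379 counts in naive and 3 in Treg. All 3 cultures lay below naive for these 5 genes, and Ifi203 has near-identical relatives that could share reads. Only 11 of the 26 had at least 10 CPM in a cultured library, and of these 7 were lower, with a median of -1.36. Myeloid cells and B cells also express these genes, and the marker sums of both were lower in Treg as well. The part of such cells in these values was not tested.

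The interferon-stimulated response element, searched as a pair of GAAA repeats 2 bases apart, was found in 12 of 20 matched promoters of the list (60.0%) and in 3.99% of all windows. The promoters of the 2 members with the largest ratios among those that held it are shown, with the match in capitals.
Ifi203 (chr1:173942443-173942742, minus strand): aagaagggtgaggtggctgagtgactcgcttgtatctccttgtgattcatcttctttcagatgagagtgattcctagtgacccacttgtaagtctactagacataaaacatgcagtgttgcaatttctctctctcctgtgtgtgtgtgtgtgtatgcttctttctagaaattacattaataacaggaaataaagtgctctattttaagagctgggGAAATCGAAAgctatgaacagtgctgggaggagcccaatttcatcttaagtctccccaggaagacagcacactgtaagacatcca
Rsad2 (chr12:26456403-26456702, minus strand): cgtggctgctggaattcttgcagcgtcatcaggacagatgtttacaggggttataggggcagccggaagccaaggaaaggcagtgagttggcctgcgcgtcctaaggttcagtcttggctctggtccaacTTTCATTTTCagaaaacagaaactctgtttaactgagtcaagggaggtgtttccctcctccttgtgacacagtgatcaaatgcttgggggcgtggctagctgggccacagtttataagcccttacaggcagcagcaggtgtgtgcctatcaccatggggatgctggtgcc
Rsad2 (viperin), an antiviral enzyme, had 32 CPM in naive cells, 8.81 in Th0, 0.305 in Th17 and 0.721 in the Treg culture, and its match lies on the opposite strand. Over 9 lists, 9 further motifs were searched on both strands: TTTGGCGC and TTTCCCGC (E2F), TGATGNAA (ATF4), GTCTAGAC (SMAD), the heat shock element, TTCNNNGAA (STAT), the CArG box, and the 2 sterol elements. A CArG box can contain CCAAT. The E2F letters were found in 6 and 7 of 33 DNA replication promoters (18.2% and 21.2%). Their shares were 0.585% and 1.24% of all windows, and 1.12% and 2.3% of the windows of genes tested here. The STAT letters stood in 5 of 21 matched IL-2 and STAT5 promoters (23.8%, against 9.55%), and the ATF4 letters in 4 of 17 of the serine and ATF4 list (23.5%, against 4.51%). The SMAD palindrome was in 1 of 18 TGF-beta pathway promoters, and in 0.248% of all windows.

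The study is about Setd2, the enzyme that trimethylates H3K36, and Lpcat4, which rebuilds phospholipids from lysophospholipids. Setd2 was 1.84-fold (interval 1.73 to 1.96) lower in Treg than in naive (246 against 133 CPM), just short of the 2-fold rule. Of the 8 H3K36 methyltransferases, the relatives Whsc1 (Nsd2, 3.11-fold) and Smyd2 (3.64-fold) were higher and the other 6 met neither rule. Ash1l (226 against 125 CPM, interval 1.7 to 1.93) was the other member with a fold near that of Setd2, also in the lower direction. Setd3 (90.2 against 147 CPM) and Whsc1l1 (309 against 471 CPM) lay above naive, Nsd1 (340.1 against 296 CPM) and Setmar (4.17 against 3.16 CPM) below, all within 2-fold.

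Lpcat4 was 1.19-fold (interval 1.05 to 1.35) lower (49.6 against 41.7 CPM) and met neither rule. Of the 15 acyltransferases, Agpat5 (29.3 against 82.6 CPM, 2.82-fold) and Agpat4 (3.84 against 12.5 CPM, 3.27-fold) were higher and Lpcat2 (387 and 6 counts, 58.4-fold) was lower. Lpcat2 is the enzyme of platelet-activating factor synthesis in myeloid cells, whose markers were also lower in Treg. The part of such cells in the Lpcat2 level was not tested. Lpcat4 aside, the other 11 were not called, among them Lpcat1 (79.8 against 68.1 CPM), Lpcat3 (31.1 against 45.4 CPM), Agpat3 (172 against 306 CPM), Mboat7 (59.1 against 87.6 CPM), Gpam (8.49 against 14.2 CPM) and Mboat2 (8 and 25 counts). Mboat2 was called higher with library totals and upper quartile scaling.

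The genes with the largest ratios included several that T cells are not known for. Lama5, a laminin chain of basement membranes (chromosome 2, 180176373 to 180225859), had 0.817 CPM in naive cells, 98.1 in Th0, 351 in Th17 and 450.4 in the Treg culture, or 552-fold (interval 299.6 to 1151) higher. Ermn (ermin), a cytoskeletal protein of oligodendrocytes (chromosome 2, 58045113 to 58052864), had 0 CPM in naive cells, 4.81 in Th0, 207 in Th17 and 182 in the Treg culture, and Slc4a11, a transporter of the SLC4 family, 0.653 CPM in naive cells, 16.8 in Th0, 137 in Th17 and 171 in the Treg culture. Tg (thyroglobulin) had 1.31 CPM in naive cells, 251 in Th0, 186 in Th17 and 219.8 in the Treg culture. For Lama5, Ermn and Slc4a11 Treg and Th17 stood far above Th0, while for Tg the 3 cultures were alike. The cytokine Lif (leukaemia inhibitory factor), which opposes Th17 differentiation, had 9.15 CPM in naive cells, 17.4 in Th0, 703 in Th17 and 509 in the Treg culture, and Il24, of the IL-10 family, 0 CPM in naive cells, 5.84 in Th0, 202 in Th17 and 66.4 in the Treg culture. The naive library had 0 counts of Ermn, Il24 and the synaptotagmin Syt13, which were at least 743-fold, at least 271-fold and at least 182-fold higher. The rest of the 15 highest were the Notch receptor Notch3 (1.96 against 109 CPM), the cytochrome oxidase isoform Cox6b2 (1.72 against 116 CPM), the actin bundler Espn (3.02 against 158 CPM), the mitotic protein Psrc1 (4.98 against 203 CPM), the synaptic adhesion protein Nlgn2 (4.65 against 187 CPM), the G protein subunit Gnal (1.8 against 88.9 CPM), the protease inhibitor Ctla2a (18.1 against 615 CPM) and Il17f. Ctla2a has a near-identical copy, and exons of Ermn, Tg, Notch3 and Gnal overlap genes on the other strand.

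The ranking left out immunoglobulin genes, among them Igkc with a log2 ratio of -7.90. The 15 lowest ratios of the genes ranked were mostly of genes known from myeloid cells. The granule proteins Ngp and Ltf of neutrophils had 5766 and 3395 counts in naive and 1 count each in Treg. Csf1r, the receptor for the macrophage growth factor, had 771 CPM in naive cells, 0.801 in Th0, 3.89 in Th17 and 4.87 in the Treg culture, and Lyz2 (lysozyme) 1112 CPM in naive cells, 4.92 in Th0, 3.58 in Th17 and 8.75 in the Treg culture. The macrophage genes C1qc (311 against 1.35 CPM), Vcam1 (709 against 4.6 CPM), the iron exporter Slc40a1 (358 against 0.812 CPM), the integrin chain Itgad (206 against 0.451 CPM) and the haemoglobin scavenger receptor Cd163 (1444 and 1 counts) were among them. So were Csf3r, the receptor for the neutrophil growth factor (175 against 0.18 CPM), Adgre4 (1534 and 0 counts), Dnase1l3, a nuclease of dendritic cells and macrophages (150.0 against 0.271 CPM), the interferon-inducible Pydc3 (185 against 0.271 CPM) and Pydc4 (292 against 0.271 CPM), and Ccnd1. Lyz2, Csf3r, Pydc3 and Pydc4 have near-identical copies. In each of these 15 genes the naive library stood above all 3 cultures.

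The same libraries were also set beside the other cultures. Among the 14350 genes, Treg was called higher than Th17 in 165 (1.15%) and lower in 224 (1.56%), and higher than Th0 in 2653 (18.5%) and lower in 1472 (10.3%). These comparisons all share the Treg library, so a value peculiar to that library would enter each of them. Treg stood above each of the other 3 libraries in 42 genes (0.293%) and below each in 30 (0.209%).

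The genes described here are 9 of the 10 with the largest values of the smallest of the 3 ratios. Pla2g4f, a phospholipase, had 3.84 CPM in naive cells, 2.63 in Th0, 4.34 in Th17 and 24.6 in the Treg culture, and Usp49, a deubiquitinase, 4.08 CPM in naive cells, 3.43 in Th0, 5.87 in Th17 and 26.3 in the Treg culture. In both genes Treg lay above 3 libraries that were close together. Crabp2, which carries retinoic acid to the nucleus, had 0.898 CPM in naive cells, 1.72 in Th0, 6.86 in Th17 and 22.7 in the Treg culture, and Camk2n1, an inhibitor of calmodulin-dependent kinase, 2.61 CPM in naive cells, 3.32 in Th0, 6.1 in Th17 and 19.7 in the Treg culture. The others were Ccr8, Pkhd1l1 (3.1 CPM in naive cells, 0.229 in Th0, 2.21 in Th17 and 13.2 in the Treg culture) and 3 genes at low levels, namely the laminin chain Lamc3, the vasopressin receptor Avpr1a and Fam178b, with 46, 34 and 48 counts in Treg and at most 1 in naive. Exons of Usp49 overlap those of Gm20517 on the same strand.

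Of the 10 genes furthest below all others, 5 are known from B cells. Cd79a, a chain of the B cell receptor, had 165 CPM in naive cells, 16.9 in Th0, 14.1 in Th17 and 3.61 in the Treg culture, and Blk, a kinase of B cells and gamma-delta T cells, 51 CPM in naive cells, 9.04 in Th0, 7.77 in Th17 and 1.62 in the Treg culture. The complement receptor Cr2 had 72.9 CPM in naive cells, 2.52 in Th0, 2.74 in Th17 and 0.271 in the Treg culture. The lectin Cd22 had 144 CPM in naive cells, 21.5 in Th0, 14.7 in Th17 and 4.96 in the Treg culture. The coactivator Pou2af1 had 90.1 CPM in naive cells, 55.3 in Th0, 14.9 in Th17 and 5.05 in the Treg culture. All 5 were highest in naive, while Treg is lowest by the rule that chose them. Of the 15 B cell markers, 9 were below all 3 other libraries. The remaining genes were the heat shock gene Hspa1b (20.9 CPM in naive cells, 612 in Th0, 7.16 in Th17 and 1.8 in the Treg culture), the kinase Lrrk2 (100.1 CPM in naive cells, 14.5 in Th0, 14.7 in Th17 and 4.24 in the Treg culture), the glycosyltransferase B3gnt5 (18.6 CPM in naive cells, 3.66 in Th0, 4.42 in Th17 and 0.631 in the Treg culture), the glutathione transferase Gstm1 (10.3 CPM in naive cells, 2.98 in Th0, 5.56 in Th17 and 0.451 in the Treg culture) and the phosphatase Ptpn13 (22.2 CPM in naive cells, 13.1 in Th0, 13.9 in Th17 and 4.6 in the Treg culture). Hspa1b and Gstm1 have near-identical copies. With library totals 54 genes stood above and 21 below all other libraries.

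**Figure D5:**
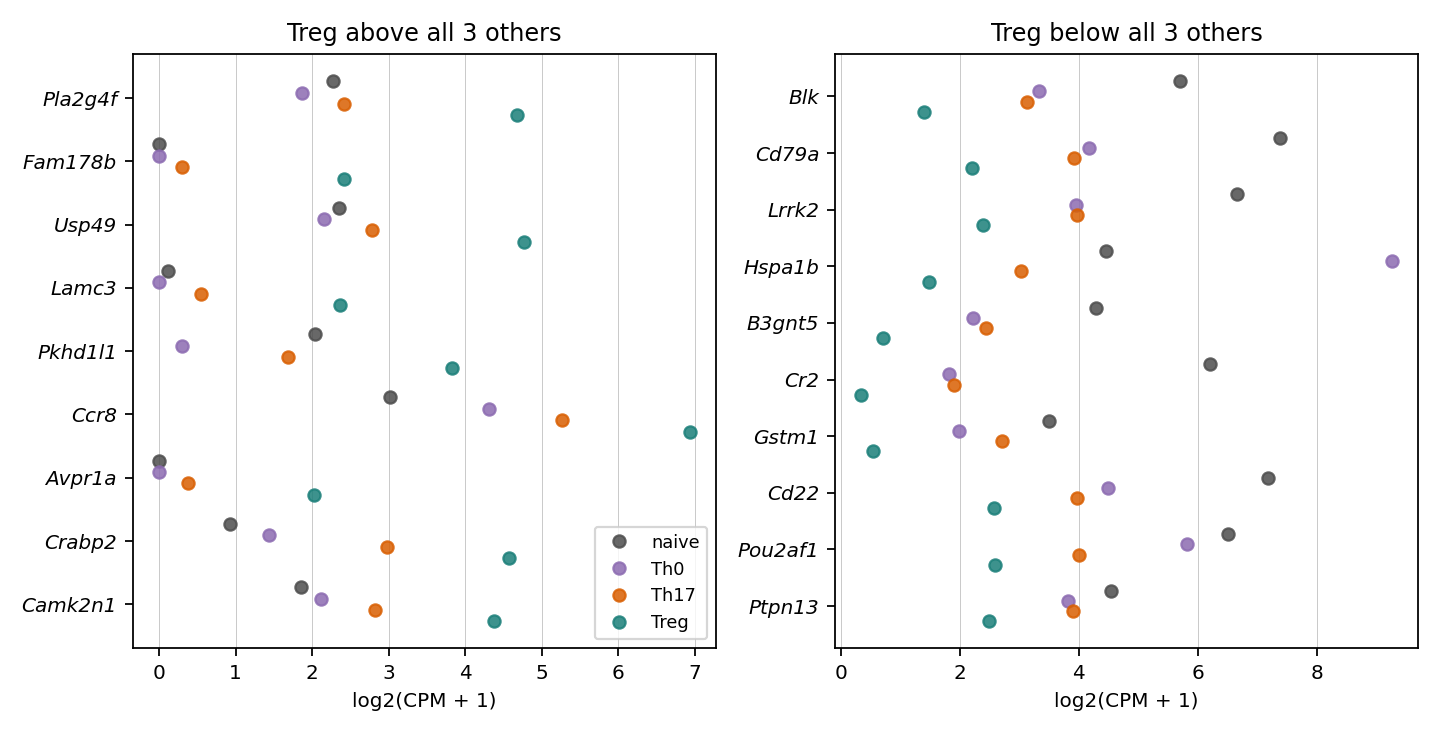
Level, as log2(CPM + 1), in each of the 4 libraries (points) of 9 of the 10 genes that stood furthest above and the 10 furthest below all other libraries in Treg. Treg lies alone to the right in the first panel, with Ccr8 at 121 CPM, and alone to the left in the second, with Cd79a at 3.61 CPM.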

How the data were processed

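RNA sequencing of 4 mouse libraries was analysed, 1 per group, grouped by the cell type in the labels. TRIzol served for RNA extraction and an Illumina HiSeq for sequencing, per the labels' protocols. Tools and builds in the submitters' processing notes are Bowtie2, RSEM, GRCm38.p6 and mm10, without roles. The sources used here give no strand, read length or annotation. Per gene, the authors deposited whole-number counts and, per the file headers, FPKM. Whether these are rounded RSEM estimates is not given in the sources used here, and if so the exact counting intervals leave out the error of assigning shared reads. The authors' FPKM and counts implied the same gene length in every library (tolerance 0.1%) in all 8988 genes that reached 50 counts in each.

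Counts were scaled with TMM factors (edgeR 4.0.16, R 4.3.3) over genes with at least 10 counts in 1 library: 1.03 (naive), 0.850 (Th0), 1.06 (Th17) and 1.08 (Treg). With 1 library a group no test was made. Intervals were 95% exact conditional (Clopper-Pearson) intervals, or exact Poisson intervals for a level. Alternatives were library totals, upper quartile, DESeq2 1.42.0 size factors, TMM over the 2 libraries, other pseudocounts and filters, and FPKM. The members, the 49 gene lists and the rules were chosen with earlier results of these data known.

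Named genes were the 15 highest and 15 lowest log2 ratios with at least 10 CPM in 1 library, the 10 furthest above and below all other libraries, up to 5 members per list with the largest ratios, and all members of 8 lists the comparison is about. Predicted genes, clone names, T cell receptor segments, immunoglobulin genes, pseudogenes and mitochondrial genes were left out of the rankings. Members listed as meeting neither rule were named to complete a count. Near-identical copies (at least 300 nt at 95% identity, minimap2 2.31-r1302) and exon overlaps of at least 50 nt (bedtools 2.31.1) were taken from GENCODE vM21, which held 34344 of the identifiers. Of the 887 list and ranked genes checked, 98 had such a copy and 206 such an overlap, and not all of these are named above. On simulated Poisson counts for Treg over naive, 13951 genes were tested. All 150 of 150 genes changed 3-fold or more were recovered and 1 unchanged gene was called. The changed genes had a mean of at least 10 CPM, and no variation between libraries beyond counting was simulated. The simulation therefore checks the calculation and gives no rate of false calls for these libraries. Promoters are RefSeq windows. Python 3.11.15 was used with scipy 1.17.1, pandas 2.3.3, matplotlib 3.10.9 and numpy 2.4.6. Some members of the lists and 1 of the genes apart from all other libraries are not reported here.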

Additional observations from a re-analysis of the deposited data

How the results depend on the processing

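The numbers of genes called moved by more than 1.5 times with the pseudocount and the filter. With a pseudocount of 5 CPM, 1304 genes were higher and 1501 lower (2805 in all), against 2132, 2425 and 4557. With a minimum of 10 CPM in 1 of the 2 libraries, 1452 were lower and 2914 called in all, since fewer genes were tested (10308). Among genes with at least 10 CPM in a cultured library, 778 were lower and 2323 called in all. The counts not given above, over the other scalings, pseudocounts, filters and the authors' FPKM, ran from 1462 to 2518 for higher calls and from 1624 to 2811 for lower calls. Members called over all lists were 462, and between 415 and 479 with the other scalings, pseudocounts and filters. With members limited to those with at least 10 CPM in a cultured library, an alternative chosen after seeing the data, they were 343. Genes apart from all 3 other libraries ranged from 40 to 54 above and 21 to 31 below. Of 364 named genes, 264 were called (263 to 268 with other scalings), 11 changed call under at least 1 of 3 other scalings, and no called ratio changed sign. Library totals moved the median log2 ratio of all genes from -0.02 to 0.04. No paired analysis was possible because each group had 1 library. For the same reason no replicate could be left out. Depth limits genes at a few counts: 3 counts were worth 0.245 CPM in naive and 0.271 in Treg.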

Other observations

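Fatty acid genes also differed between the Treg culture and naive cells. Of 20 tested genes of fatty acid synthesis and desaturation, 8 were higher and 2 lower. The desaturase Scd2 had 117 CPM in naive cells, 1457 in Th0, 1833 in Th17 and 1789 in the Treg culture, or 15.3-fold higher, and Fads2, of polyunsaturated fatty acids, was 7.75-fold higher (4.0 against 31 CPM). Scd1, which stood above all 3 other libraries and was named for that after its values were seen, had 126 CPM in naive cells, 43.7 in Th0, 138 in Th17 and 291 in the Treg culture. Scd1 and Scd2 are near-identical in part. Elovl6 (22.1 against 92.6 CPM), Acsl4 (63.7 against 280.3 CPM) and Acsl6 (4 and 33 counts) were higher. Of 10 genes of cholesterol efflux, 4 were lower and none higher. Apoe (345 against 12.3 CPM) and the LXR gene Nr1h3 (48.5 against 2.98 CPM) are macrophage genes as well. The macrophage markers were also lower in Treg, and the part of macrophages in these 2 levels was not tested. Of 21 genes of fatty acid oxidation, 5 were higher and 1 lower, the latter being Pparg (18.9 against 0.541 CPM).

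Genes of the other helper lineages went both ways. Of 16 Th1 genes, 3 were higher and 8 lower, with a median log2 ratio of -0.79. A limit to genes with at least 10 CPM in a cultured library takes out lower calls in particular. Over all genes it moved the share of calls that were higher from 46.8% to 66.5%. Among the 10 Th1 genes within that limit, 3 were higher and 2 lower, and the median was 0.29. The list held Il12rb2, a chain of the IL-12 receptor, at 16.3 CPM in naive cells, 175 in Th0, 467 in Th17 and 326 in the Treg culture and the chemokines Ccl5 (64.9 against 7.21 CPM), Ccl3 (21.7 against 1.62 CPM) and Ccl4 (15.9 against 1.26 CPM), which were lower. The factor Tbx21 had 23.5 CPM in naive cells, 67.8 in Th0, 6.1 in Th17 and 9.02 in the Treg culture and was named after its values were seen. Of 13 Th2 and follicular genes, 2 were higher and 3 lower (1 and 2 of the 9 with at least 10 CPM in a cultured library), among them Tox (49.2 against 9.56 CPM) and Cebpa (30.6 against 0.451 CPM), which is also a myeloid gene. Among markers of other cells, some were higher in Treg than in naive. Gzma, a granzyme, had 12.5 CPM in naive cells, 44.2 in Th0, 156 in Th17 and 190.0 in the Treg culture, and Kit, the stem cell factor receptor, 51.9 CPM in naive cells, 10.9 in Th0, 137 in Th17 and 222 in the Treg culture, while Cpa3 and Prss34 of the same mast cell and basophil list had 1 and 4 counts in Treg. Ccl22, a ligand of Ccr4, had 3.51 CPM in naive cells, 19.6 in Th0, 27.1 in Th17 and 44.3 in the Treg culture and was named after its values were seen.

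Of 19 chaperonin and heat shock genes tested, 1 was higher and 5 lower. Hsph1 had 402 CPM in naive cells, 298 in Th0, 48 in Th17 and 52.5 in the Treg culture and Hspa1a 16.4 CPM in naive cells, 439 in Th0, 7.32 in Th17 and 2.71 in the Treg culture. Of 18 genes of the unfolded protein response, 1 was higher, Xbp1 (130.0 against 326 CPM), and 2 lower, Dnajb9 (90.8 against 11.2 CPM) and Hspa5 (665 against 283 CPM). Of 14 NF-kappaB genes, Tnfaip3, an inhibitor of the pathway, had 912 CPM in naive cells, 196 in Th0, 147 in Th17 and 114 in the Treg culture and was lower, and Bcl3 was higher (53.7 against 187 CPM). Of 21 apoptosis regulators, 4 were higher and 3 lower. Fasl, the death ligand, had 16.5 CPM in naive cells, 18.2 in Th0, 24.5 in Th17 and 64.1 in the Treg culture, above all 3 other libraries. Of 11 genes of metal handling, 3 were higher and 5 lower, with Hmox1, of haem breakdown, at 718 CPM in naive cells, 14 in Th0, 31.5 in Th17 and 28.6 in the Treg culture. Their median was -0.70, but 0.31 over the 9 with at least 10 CPM in a cultured library, of which 3 were higher and 3 lower. That limit takes out lower calls in particular. Hmox1 is a macrophage gene as well, and the macrophage markers were also lower in Treg. The part of macrophages in its level was not tested. Uhrf1, which maintains DNA methylation, was 3.27-fold higher (44.5 against 146 CPM), and Dnmt3b was called higher (12.5 against 26.7 CPM) except with DESeq2 size factors.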
